A study of Mus musculus with 4 samples.

Results

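Mitochondrial ribosomal protein genes are nuclear genes whose products form the ribosome inside mitochondria. They were taken from the deposited gene table as every row whose symbol starts with Mrpl or Mrps followed by a digit, without the 3 pseudogene rows, which gave 78 of 15887 genes. The large subunit accounted for 51 of them, with Mrps18a and Mrps30 placed there by their known position, and the small subunit for 26. The remaining gene, Mrps36, carries the prefix but is now known as a component of the 2-oxoglutarate dehydrogenase complex. By family, 48 are homologues of bacterial ribosomal proteins and 29 are found only in mitochondrial ribosomes.

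The mitochondrial ribosome translates the few proteins that are encoded by mitochondrial DNA, all of them subunits of the respiratory chain and ATP synthase. Its ribosomal RNAs and transfer RNAs come from mitochondrial DNA, whereas all of its proteins are translated in the cytosol and imported. Compared with its bacterial relative, it has less RNA and more protein, so most of its parts are supplied by nuclear genes.

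The samples were tooth germs of ICR mouse embryos kept in organ culture, and 4 CAGE libraries were made from them. CAGE, short for cap analysis of gene expression, reads RNAs from their capped 5′ end, so a transcript gives tags at its start site regardless of its length and counts can be set side by side between genes. The conditions were 37°C_DMSO and 25°C_DMSO, which received only the solvent, and 37°C_CPA and 25°C_CPA, which received cyclophosphamide (CPA), an alkylating drug that damages DNA once it is activated. All shared the same serum-containing medium and the air-liquid interface, and each library pooled several tooth germs. The methods and the series design give E14.5 tooth germs, 2.5 mM CPA and 3 days of treatment, while the sample records give 0.25 mM CPA, dissection at E13.5 and 4 further days without CPA, so dose, age and length of culture are not settled. Every condition had 1 library. No difference below has a replicate check, no p-value is given, and "higher" and "lower" describe these libraries.

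The libraries held between 15101186 and 16449264 counts, the highest 1.09 times the lowest. All 7 dental epithelium and all 7 dental mesenchyme markers had at least 50 counts in each library. Their summed levels ranged from 1240 to 1547 counts scaled per 1e6 (CPM) for epithelium and from 609 to 882 CPM for mesenchyme. Single markers differed far more than these sums, which rest largely on Krt5 and Vim. In the cold without drug Shh was 7.05-fold lower (61.8 and 8.76 CPM), Trp63 and Cdh1 were each 1.89-fold lower, and Lhx8 was 2.71-fold higher (42.9 and 116 CPM). RNA of other cell types also differed between libraries. Values are given for both warm libraries and then both cold ones, DMSO before CPA. The 7 bone and odontoblast markers summed to 3305, 1607, 634 and 658 CPM, the 7 macrophage markers to 254, 147, 78.1 and 73.6 CPM and the 6 of 7 skeletal muscle markers with a row to 42.9, 19.6, 16.6 and 23.5 CPM. The 4 of 6 erythroid markers with a row summed to 9.33, 15.7, 123 and 97.4 CPM, and the 5 endothelial markers to 81.6, 62.0, 45.0 and 38.9 CPM. Most of the bone and odontoblast sum was Col1a1, at 2900, 1537, 566 and 580 CPM. In the cold most of the erythroid sum was Hbb-y, at 106 and 71.2 CPM. Without drug, all 5 bone and odontoblast markers with at least 50 counts in either library were lower in the cold. Phex, with 14 counts at 37 °C and 37 at 25 °C, was higher. All 4 erythroid markers were higher. None of the markers with a row was at 0 in any library. These sums move with both drug and temperature, and their part in the results below was not tested. In whole tooth germs, fewer cells of a type and less RNA per cell cannot be told apart.

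Promoter windows, from 250 bases before to 50 after each RefSeq start site on GRCm38.p6, were given for 69 of the 78 genes (75 windows). Transcription of nuclear genes for mitochondrial proteins is known to depend on NRF1 and on GABP, an ETS-family factor. The windows were therefore searched on both strands for an ETS core (CCGGAAG), an NRF1 core (GCGCANGCG), a YY1 core (AAGATGG) and an E-box (CACGTG). The 4 genes whose levels differed 2-fold or more between temperatures are shown first, then the gene with the highest level, all 5′ to 3′ on the strand of the gene. Capitals mark a match to any of the 4 motifs on either strand.
Mrps18c, chr5:100798509-100798808, + strand: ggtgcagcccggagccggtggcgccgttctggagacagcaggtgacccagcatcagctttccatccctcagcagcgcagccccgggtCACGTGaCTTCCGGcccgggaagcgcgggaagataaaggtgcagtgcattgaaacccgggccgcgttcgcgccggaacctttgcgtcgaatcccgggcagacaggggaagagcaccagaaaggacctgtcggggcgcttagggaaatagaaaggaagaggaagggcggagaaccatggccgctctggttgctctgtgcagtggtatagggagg
Mrpl2, chr17:46645971-46646270, + strand, the first of 3 windows: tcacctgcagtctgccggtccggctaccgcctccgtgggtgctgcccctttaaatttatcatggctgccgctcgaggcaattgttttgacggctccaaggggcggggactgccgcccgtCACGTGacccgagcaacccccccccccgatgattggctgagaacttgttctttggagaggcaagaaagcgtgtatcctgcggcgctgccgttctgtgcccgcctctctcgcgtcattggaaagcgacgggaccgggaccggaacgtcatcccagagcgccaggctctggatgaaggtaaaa
Mrpl34, chr8:71464676-71464975, + strand: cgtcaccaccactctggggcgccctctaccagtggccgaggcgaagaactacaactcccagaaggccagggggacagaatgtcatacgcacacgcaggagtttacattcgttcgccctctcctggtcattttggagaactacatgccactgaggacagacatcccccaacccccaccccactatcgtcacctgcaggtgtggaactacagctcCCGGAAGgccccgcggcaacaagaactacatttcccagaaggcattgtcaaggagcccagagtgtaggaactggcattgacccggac
Mrps25, chr6:92183974-92184273, - strand: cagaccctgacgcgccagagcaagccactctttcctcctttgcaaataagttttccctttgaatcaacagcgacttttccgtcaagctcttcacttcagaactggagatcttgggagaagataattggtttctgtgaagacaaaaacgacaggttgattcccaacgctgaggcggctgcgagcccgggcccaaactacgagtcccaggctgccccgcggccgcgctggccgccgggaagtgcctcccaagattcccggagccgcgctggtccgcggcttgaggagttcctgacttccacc
Mrpl52, chr14:54426659-54426958, + strand: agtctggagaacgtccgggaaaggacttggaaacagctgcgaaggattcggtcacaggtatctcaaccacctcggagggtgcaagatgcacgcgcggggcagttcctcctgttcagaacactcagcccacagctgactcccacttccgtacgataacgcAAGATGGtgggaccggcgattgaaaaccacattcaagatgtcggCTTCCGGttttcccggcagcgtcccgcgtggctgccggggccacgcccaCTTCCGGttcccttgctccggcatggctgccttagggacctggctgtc
The window of Mrps18c held an E-box at -163 and an ETS core at -156, both counted from the start site. That of Mrpl2 held an E-box at -131, that of Mrpl34 an ETS core at -37, and that of Mrps25 had none of these letters. The window of Mrpl52 held a YY1 core at -91 and ETS cores at -47 and 3.

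Across the family, 26 of the 75 windows held the ETS core (34.7%), against 16.4% of 14060 windows of 11029 genes of the table. The NRF1 core was in 16 windows (21.3%, against 12.4%) and the YY1 core in 13 (17.3%, against 6.82%). The E-box was in 7 windows (9.33%, against 9.62%). At least 1 of the ETS, NRF1 and YY1 cores was present in 44 windows (58.7%, against 31.0%), and the median GC content was 58.7% against 60.7%. These shares describe letters in a window and not binding of a factor.

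All 78 genes were detected well above the count minimum, with a lowest count of 95. At least 200 counts in every library were found for 76 of them. The levels, given as TMM-normalized CPM, had a median of 64.2 CPM over the genes' means, and the highest mean was 46.2 times the lowest, or 27.9 times without Mrpl27, whose row is in doubt. A mean of 100 CPM or more was reached by 22 genes.

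Mrpl52, a large-subunit protein found only in mitochondria (chromosome 14, 55045746 to 55048587 on mm9), had the highest mean level. Its level was 333 CPM in 37°C_DMSO and 348 CPM in 37°C_CPA, against 403 CPM in 25°C_DMSO and 388 CPM in 25°C_CPA, so both cold libraries were above both warm ones. Mrps18c followed with a mean of 256 CPM, then Mrpl17 (249 CPM), a homologue of bacterial L17, Mrps14 (241 CPM), a homologue of bacterial S14, and Mrpl57 (184 CPM), a mitochondrion-specific protein of the large subunit.
Mrpl17 and Mrps14 were nearly level across the 4 conditions. Mrpl17 lay between 238 and 259 CPM and Mrps14 between 234 and 247 CPM.

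The lowest means belonged to Mrpl27 (7.96 CPM), Mrps33 (13.2 CPM), Mrpl47 (16.1 CPM), Mrpl44 (23.6 CPM) and Mrps31 (25.2 CPM). The predicted gene Gm45453 on the same strand had counts identical to those of Mrps31. The level can therefore not be given to Mrps31 alone. Mrpl27 is a homologue of bacterial L27, which lies near the peptidyl transferase centre, and Mrpl44 carries an RNase III-like domain. The value of Mrpl27 has a direct limit. Its pseudogene row Mrpl27-ps, not a member, carried 913, 763, 1159 and 1151 counts in the 4 libraries, against 95, 142, 113 and 141 for Mrpl27 itself. How tags were divided between such near-identical copies is not given in the sources used here.

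**Figure D1:**
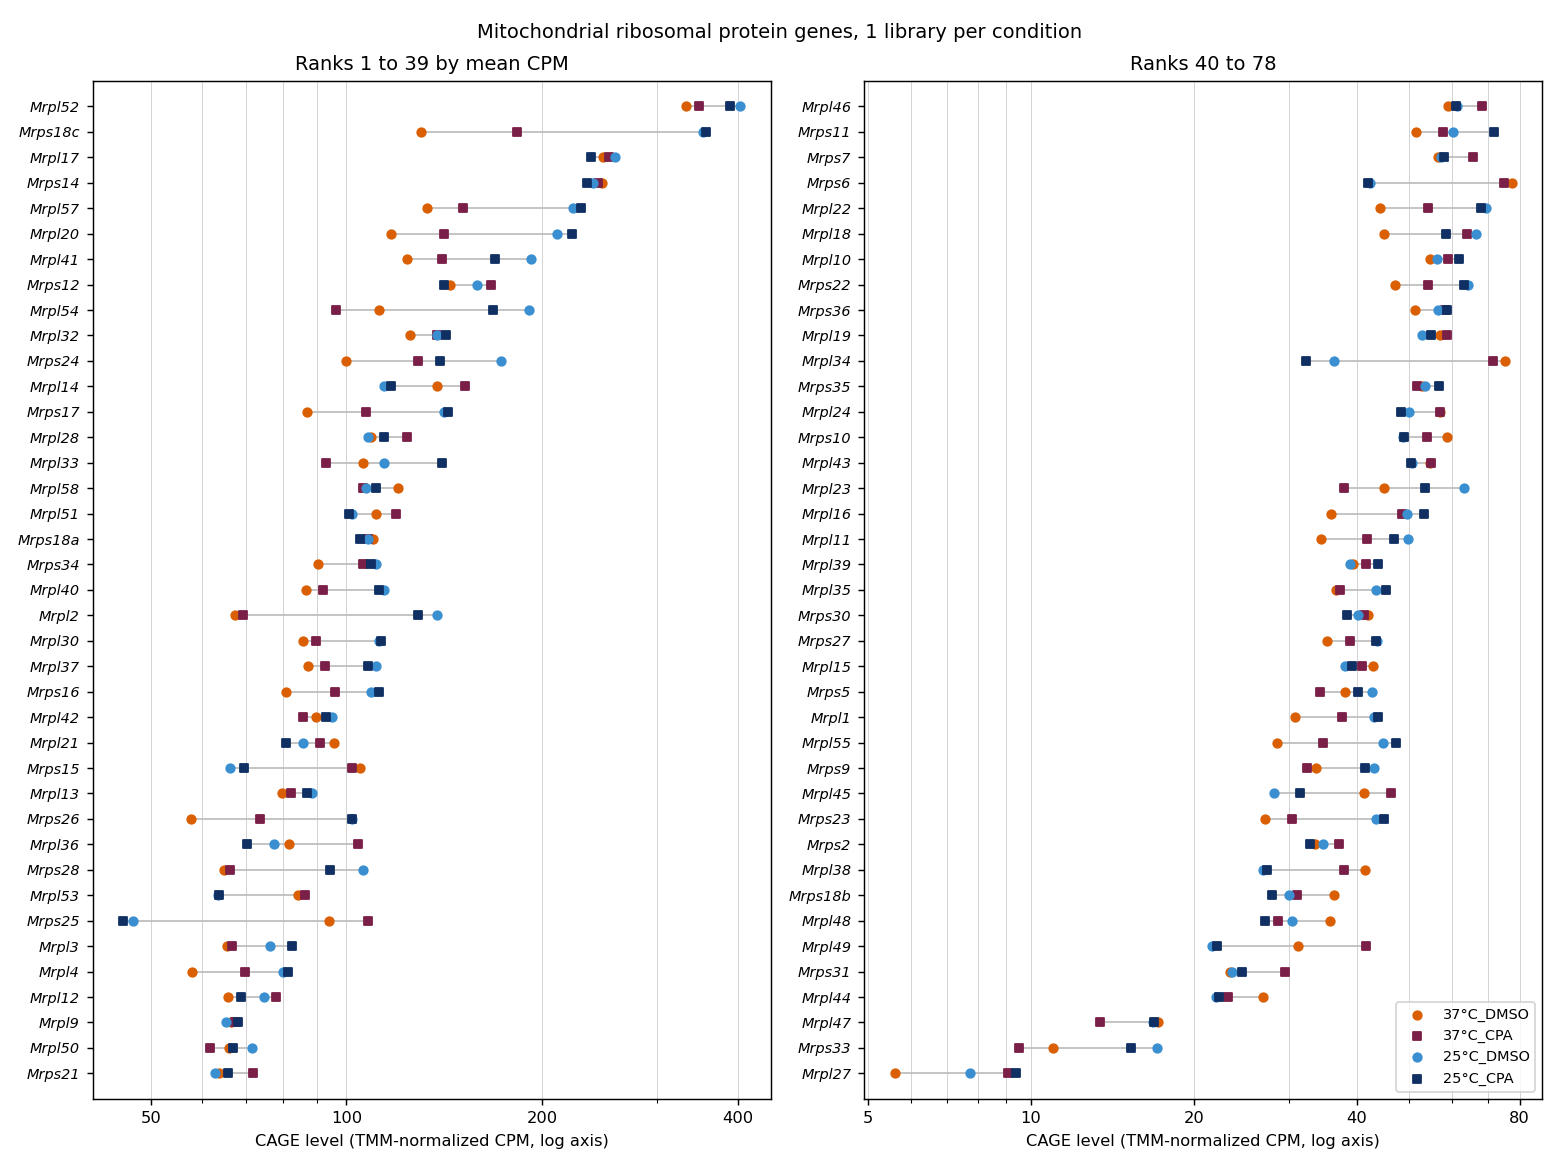
Level of each of the 78 genes in the 4 libraries, as TMM-normalized CPM on a log axis, ordered by mean level. Each point is 1 library and the grey line spans the 4 values. The circles and squares of 25 °C (blue) lie to the right of those of 37 °C for Mrps18c and Mrpl2 and to the left for Mrps25 and Mrpl34, while Mrps14 stays between 234 and 247 CPM.

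Together the family took 0.602% of the counts of 37°C_DMSO and 0.642% of those of 37°C_CPA, and at 25 °C it took 0.663% without and 0.662% with CPA. The summed level was 5845, 6268, 6857 and 6754 CPM in the same order, lowest in 37°C_DMSO. The median gene was at 61.3, 66.9, 63.8 and 64.7 CPM.

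The first comparison asks what CPA did at 37 °C, the usual culture temperature. The family as a whole was slightly higher in 37°C_CPA than in 37°C_DMSO. The median log2 fold was 0.09 (quartiles -0.04 and 0.22) and 54 of 78 genes were above 0, while the median of the 13307 measured genes was -0.02 (quartiles -0.24 and 0.19). The summed fold was 1.07 (95% interval 1.06 to 1.08, counting error only), against 1.00 for the summed counts of all genes. A gene counts as measured here when its higher library had at least 50 counts. At 1.5-fold or more, 1 member was higher and 0 were lower, against 6.59% of all measured genes higher and 6.61% lower. At 2-fold, 0 members differed in either direction, against 2.40% higher and 1.59% lower. Small-subunit genes had a median of 0.17 and large-subunit genes one of 0.06. The share above 0 had the opposite order, with 17 of 26 small-subunit genes (65.4%) and 36 of 51 large-subunit genes (70.6%).

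The single call was Mrpl27, with 95 counts in 37°C_DMSO and 142 in 37°C_CPA, a fold of 1.62 (1.24 to 2.12). When its counts were added to those of Mrpl27-ps, 1008 and 905 counts gave a fold of 0.972 (0.888 to 1.06). The call therefore rests on the gene row alone.

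The other members at the high end stayed below 1.5-fold. Mrpl18, a homologue of bacterial L18, had 762 counts in 37°C_DMSO and 1001 in 37°C_CPA, a fold of 1.42 (1.29 to 1.57). Mrps18c went from 2208 to 2859 counts (1.40, 1.33 to 1.48). Mrpl16, a homologue of bacterial L16, had 608 and 757 counts, a log2 fold of 0.43, and Mrpl49 of the mitochondrion-specific group had 529 and 652, a log2 fold of 0.42. For each of these 4 genes the counting interval of the fold lay above 1.

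At the low end, Mrpl47, related to bacterial L29, had 291 and 209 counts and was 1.29-fold lower in 37°C_CPA (1.07 to 1.54). Mrpl48 had 605 and 447 counts and was 1.25-fold lower (1.10 to 1.42). Mrpl23 had a log2 fold of -0.25, Mrps18b of -0.23 and Mrpl54 of -0.22. The row Mrpl23-ps1 held more counts than Mrpl23 itself (3620 against 762 in 37°C_DMSO and 2693 against 592 in 37°C_CPA). Its log2 fold was -0.31, on the same side as Mrpl23.

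The second comparison asks what the same drug did in the cold. The family was level between 25°C_CPA and 25°C_DMSO. The median log2 fold was 0.00 (quartiles -0.08 and 0.05), 39 of 78 genes were above 0, and the summed fold was 0.985 (0.976 to 0.994). The summed counts of all genes gave 0.987, so the family's sum was at the background. Over all 12704 measured genes, the median was also 0.00, with quartiles of -0.09 and 0.10. At 1.5-fold, 0 members were higher and 0 lower, against 0.827% and 0.937% of all measured genes, and at 2-fold again 0 and 0, against 0.142% and 0.118%. So few genes of the table passed either threshold that a count of 0 among 78 is near the background.

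The widest differences at 25 °C were small ones. Mrps24, a homologue of bacterial S3, had 2523 counts in 25°C_DMSO and 2077 in 25°C_CPA and was 1.25-fold lower (1.18 to 1.32). Mrpl23 had 921 and 800 counts, a fold of 0.846 (0.769 to 0.932). Mrpl33, a homologue of bacterial L33, went from 1665 to 2093 counts, 1.22-fold higher (1.15 to 1.31), and Mrps11, a homologue of bacterial S11, from 879 to 1074 (1.19, 1.09 to 1.30).
Of the rest named by rank, Mrpl18, Mrpl54 and Mrpl41 were at -0.19, -0.19 and -0.18 on the log2 scale. Mrpl27 was at 0.28, with an interval of its fold from 0.943 to 1.57 that includes 1, Mrpl39 at 0.17 and Mrpl45, related to the membrane-anchoring protein Mba1 of yeast, at 0.16.

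The drug's folds at the 2 temperatures come from 4 different libraries and can be set side by side. The log2 fold at 25 °C minus that at 37 °C had a median of -0.11 over the 78 genes (quartiles -0.22 and 0.03) and of 0.01 over 12328 genes measured in both. Across the 78 genes the drug's folds at 37 °C and at 25 °C had a Pearson r of 0.19 and a Spearman rho of 0.19. Over the 12328 genes r was 0.01 and rho 0.02. Genes are not independent replicates, and these values are descriptions.

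**Figure D2:**
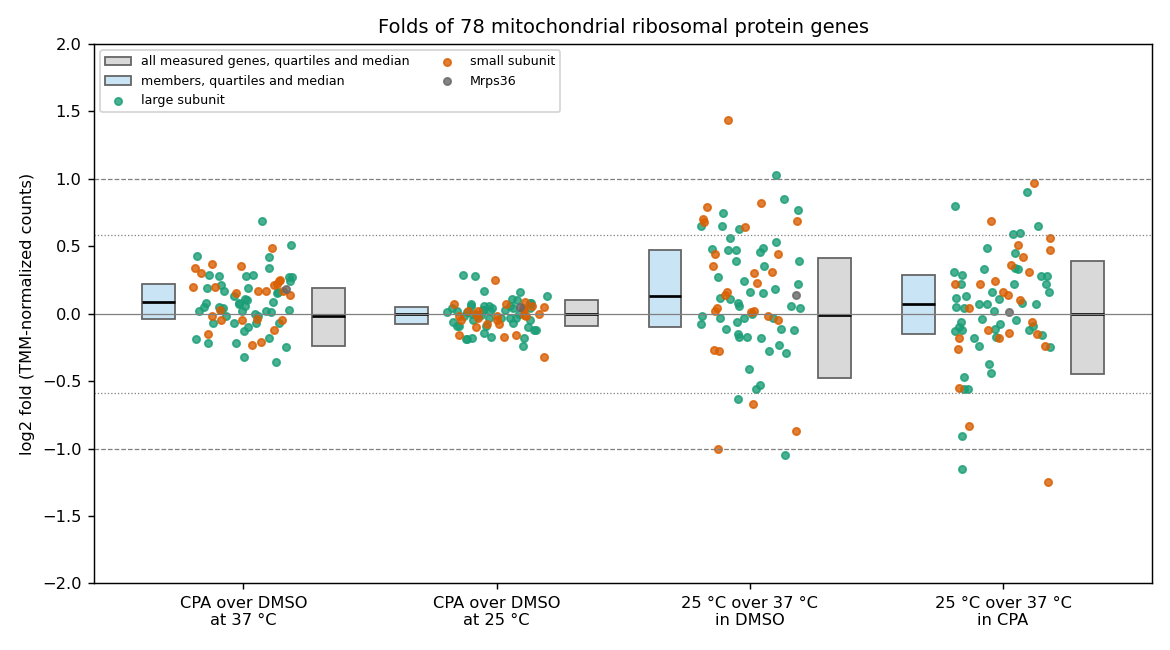
The log2 fold of each of the 78 genes in 4 comparisons, coloured by subunit, with boxes for the quartiles and the median of the members (left, blue) and of all measured genes (right, grey). Dotted lines mark 1.5-fold and dashed lines 2-fold. The points spread from -0.36 to 0.69 for CPA at 37 °C, from -0.32 to 0.29 for CPA at 25 °C and from -1.05 to 1.44 for temperature in DMSO.

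Temperature is the comparison in which single members differed most. Between 25°C_DMSO and 37°C_DMSO the median log2 fold was 0.13 (quartiles -0.10 and 0.47), 49 of 78 genes were above 0, and the summed fold was 1.17 (1.16 to 1.18). The summed counts of all genes gave a fold of 1.06. Over the 13491 measured genes, the median was -0.01 with quartiles of -0.48 and 0.41. At 1.5-fold, 14 members were higher in the cold and 5 lower, that is 17.9% and 6.41%, against 17.3% and 21.4% of all measured genes. The share of members higher was thus near the background and the share lower was below it. At 2-fold, 2 members were higher and 2 lower, 2.56% each, against 6.45% and 11.5% of all measured genes.

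Mrps18c, 1 of 3 mammalian homologues of bacterial S18 (gene ENSMUSG00000016833.14, chromosome 5, 101227646 to 101233490 on mm9), stood at the top. Its counts were 2208 without and 2859 with CPA at 37 °C, then 5152 without and 5355 with CPA at 25 °C, or 130, 183, 353 and 357 CPM. Both cold libraries lay above both warm ones.
The fold in DMSO was 2.70 (2.57 to 2.84). The predicted gene Gm43511 on the same strand had identical counts in all 4 libraries, so the tags of these overlapping rows cannot be told apart. The other homologues of S18 did not share the pattern. Mrps18a had 1859, 1690, 1576 and 1579 counts, a log2 fold of -0.03 in the cold, and Mrps18b had 615, 484, 438 and 419 counts, a log2 fold of -0.28. In the mammalian mitochondrial ribosome, Mrps18a is known to lie in the large subunit and the other homologues in the small one.

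Mrpl2, the homologue of bacterial L2 near the peptidyl transferase centre (gene ENSMUSG00000002767.13, chromosome 17, 46783178 to 46787088 on mm9), had 1140 and 1084 counts at 37 °C without and with CPA. At 25 °C it had 2014 and 1938 counts, a fold of 2.05 in DMSO (1.90 to 2.20). The drug pair at each temperature was close together, and the 2 pairs did not overlap.

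Mrpl34, the homologue of bacterial L34 (gene ENSMUSG00000034880.7, chromosome 8, 73988825 to 73989651 on mm9), showed the reverse order. At 37 °C it had 1270 counts in DMSO and 1118 in CPA, and at 25 °C 531 in DMSO and 482 in CPA. In DMSO it was 2.06-fold lower in the cold (1.86 to 2.29).
Mrps25, a mitochondrion-specific small-subunit protein (gene ENSMUSG00000014551.8, chromosome 6, 92119519 to 92134027 on mm9, - strand), had 1593, 1691, 686 and 681 counts in that order. It was 2.00-fold lower in DMSO (1.83 to 2.19), which puts it on the 2-fold line. For both genes every cold library was below every warm one.

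The next genes on the high side were Mrpl20, Mrps26 and Mrps24. Mrpl20, the homologue of a bacterial protein needed early in large-subunit assembly, had 1989, 2209, 3085 and 3333 counts, a fold of 1.80 in DMSO (1.70 to 1.90). Mrps26 had 976, 1149, 1485 and 1529 counts (1.76, 1.63 to 1.91). Mrps24 had 1697, 2021, 2523 and 2077 counts (1.72, 1.62 to 1.83).
Mrpl20 and Mrps26 kept the cold libraries on top with or without CPA, whereas the 25°C_CPA library of Mrps24 was close to its 37°C_CPA library. Mrpl54, Mrpl57, Mrps28, Mrps17, Mrpl22, Mrpl55, Mrps23, Mrpl41 and Mrps33 were the further members at 1.5-fold or more.

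On the low side, Mrps6, homologue of bacterial S6, had 1309, 1168, 619 and 628 counts and was 1.82-fold lower (1.66 to 2.01). Its counts were identical to those of Slc5a3, a myo-inositol transporter gene on the same strand, and of Gm49711, so the value cannot be given to Mrps6 alone. Mrps15, homologue of bacterial S15, had 1781, 1593, 968 and 1043 counts and was 1.59-fold lower (1.47 to 1.72).
Mrpl38 had 703, 592, 392 and 410 counts and was 1.55-fold lower (1.37 to 1.76). Small-subunit genes had a median log2 fold of 0.19 and large-subunit genes one of 0.08, with summed folds of 1.23 and 1.15. The small-subunit sum went from 1847 CPM in 37°C_DMSO to 2271 CPM in 25°C_DMSO. Within it Mrps18c alone, whose counts equal those of Gm43511, went from 130 to 353 CPM. The order of the summed folds therefore depends heavily on that 1 row. Homologues of bacterial proteins and mitochondrion-specific proteins had medians of 0.15 and 0.06, so neither class moved as a block.

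With CPA in both libraries, the cold gave a similar but smaller pattern. The median log2 fold of 25°C_CPA over 37°C_CPA was 0.07 (quartiles -0.15 and 0.29), with 45 of 78 genes above 0 and a summed fold of 1.08 (1.07 to 1.09). The summed counts of all genes gave 1.05, close to the value of the family. The 13343 measured genes had a median of 0.00 and quartiles of -0.45 and 0.39. At 1.5-fold, 7 members were higher and 4 lower, 8.97% and 5.13%, against 16.3% and 20.3% of all measured genes. At 2-fold, 0 members were higher and 2 were lower, against 6.32% and 10.9%.

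The 2 lower members were Mrps25 (2.38-fold, 2.18 to 2.61) and Mrpl34 (2.22-fold, 2.00 to 2.48). Mrpl49 was 1.88-fold lower (1.65 to 2.16), with counts of 652 in 37°C_CPA and 332 in 25°C_CPA, and Mrps6 was 1.78-fold lower (1.62 to 1.97). Mrpl36, the homologue of bacterial L36, was 1.48-fold lower (1.37 to 1.60), just inside the threshold, with 1623 and 1053 counts.
At the high end, Mrps18c was 1.95-fold higher (1.87 to 2.04) and Mrpl2 1.86-fold higher (1.73 to 2.01). Mrpl54 had 1506 and 2517 counts (1.74, 1.63 to 1.86), and Mrpl20 2209 and 3333 (1.57, 1.49 to 1.66). The low-count gene Mrps33, with 149 and 230 counts, was at a log2 fold of 0.69, Mrpl57 at 0.60 and Mrpl33 at 0.59.
The smaller value of Mrps18c in this comparison goes with its higher level in 37°C_CPA, since the 2 cold libraries had nearly the same counts.

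The temperature folds without and with CPA share no library. Over the 78 genes they had a Pearson r of 0.89 and a Spearman rho of 0.83, and 66 genes had the same sign, while 13151 genes of the table measured in both had an r of 0.88 and a rho of 0.81. Scaling factors shift all genes of a comparison alike and so leave r and rho unchanged. Both pairs come from the same organ culture, and the likeness of the members was that of genes in general.

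**Figure D3:**
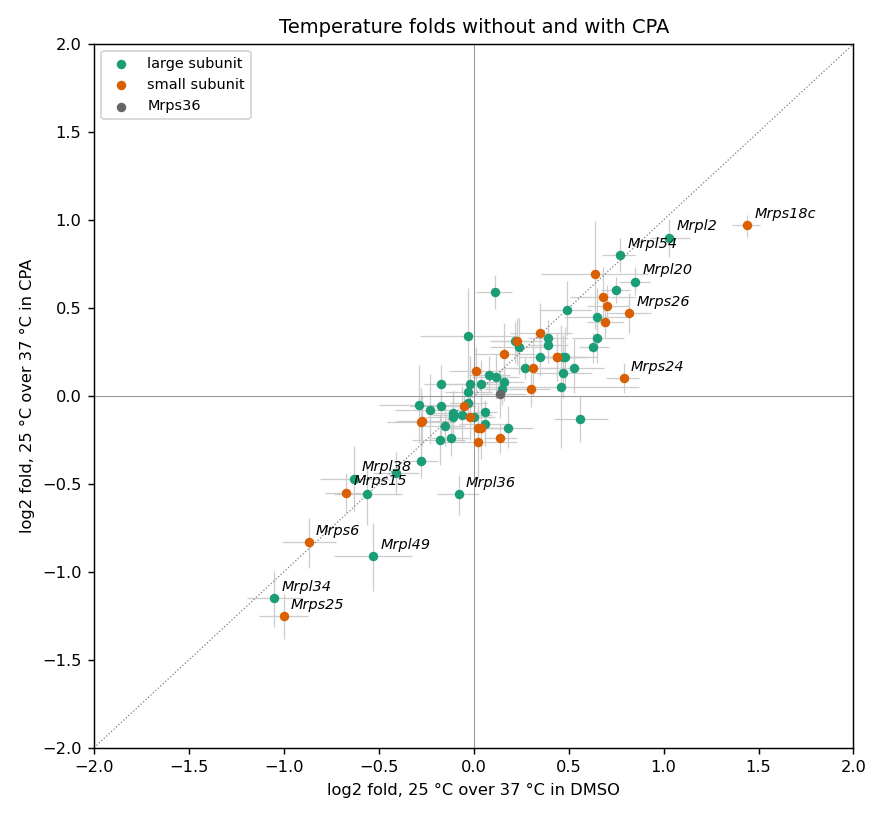
The log2 fold of 25 °C over 37 °C in DMSO (horizontal axis) and in CPA (vertical axis) for each of the 78 genes, with 95% counting intervals as grey bars. The dotted line marks equal folds. Mrps18c and Mrpl2 lie at the top right, and Mrps25 and Mrpl34 at the bottom left, below -1 on the vertical axis.

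The members were somewhat less spread than the genes of the table with at least 200 counts in every library. Beyond that minimum the counts were not matched, and these genes include the members. Among 8259 genes with at least 200 counts in every library, the interquartile range of the log2 folds was 0.35 for CPA at 37 °C, 0.15 for CPA at 25 °C, 0.69 for temperature in DMSO and 0.64 for temperature in CPA. For the 76 members with as many counts it was 0.25, 0.12, 0.56 and 0.43 in that order. Within 1.5-fold in either direction were 76.3% of these members and 72.8% of those genes for temperature in DMSO, and 86.8% and 75.5% for temperature in CPA.

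The direction of the family against all genes did not depend on the scaling factors, which move every gene of a library by the same amount. The members' median minus that of all measured genes was 0.11 for CPA at 37 °C, 0.00 for CPA at 25 °C, 0.14 for temperature in DMSO and 0.06 for temperature in CPA under TMM, total counts, DESeq2 size factors, upper quartiles and Gapdh alike. The choice of genes did matter. With at least 200 counts in every library, the medians of members and of all such genes were 0.09 and 0.00 for CPA at 37 °C. They were 0.00 and 0.00 for CPA at 25 °C, 0.11 and 0.05 for temperature in DMSO, and 0.07 and 0.05 for temperature in CPA. For temperature the members were thus closer to other genes. Scaling to Gapdh, which had 215, 193, 138 and 117 counts, moved the median of all genes to 0.02, 0.28, 0.42 and 0.67 in that order, so a gene whose log2 fold is negative and smaller in size than that shift is higher under Gapdh scaling. Under this scaling 72.2% of all 2-fold calls for temperature in DMSO were higher in the cold, against 35.9% under TMM and 28.6% under total counts. With CPA in both libraries these shares were 85.5%, 36.7% and 31.0%, and for CPA at 25 °C they were 89.7%, 54.5% and 55.9%.

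Some of these genes lie close to a second gene transcribed from the other strand. Within 1000 bases upstream on mm9, 17 of 77 members with a position had such a partner among the table's genes (22.1%), against 11.0% of 14333 genes of the table. The Mrps18c start lay 27 bases from that of Helq, a DNA helicase gene, which had 280, 421, 325 and 357 counts. Its log2 fold was 0.70 for CPA at 37 °C, where Mrps18c was at 0.49, and 0.43 for temperature in DMSO, where Mrps18c was at 1.44.
The start of Mrpl57 lay 76 bases from that of Ska3, a gene of the spindle and kinetochore complex, which had 436, 630, 290 and 296 counts. In the cold without drug, Mrpl57 was at 0.75 and Ska3 at -0.38. Mrpl51 and Ncapd2, a condensin gene, lay 206 bases apart and had log2 folds of 0.10 and 0.87 for CPA at 37 °C. Mrps12 and Sars2, the mitochondrial seryl-tRNA synthetase gene, lay 171 bases apart and were at 0.21 and -0.31. These 4 pairs, chosen after their values were seen, differed in size or direction, and other pairs were closer. In the cold without drug Mrpl37 and Cyb5rl were at 0.35 and 0.39, Mrps27 and Ptcd2 at 0.31 and 0.21, and Mrps18b and Ppp1r10 at -0.28 and -0.39.
Over the measured pairs, r was 0.33 for CPA at 37 °C (15 pairs), -0.16 for CPA at 25 °C, 0.06 for temperature in DMSO and -0.17 for temperature in CPA (16 pairs each). The rho values were 0.18, -0.28, 0.11 and -0.23.

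Other parts of the mitochondrial translation machinery were read beside the members. Of 5 mitoribosome genes named outside the prefix, Dap3, Aurkaip1, Ptcd3, Chchd1 and Gadd45gip1, 0 passed 1.5-fold in any comparison. Of all measured genes, 6.59% were higher and 6.61% lower for CPA at 37 °C, and 0.827% and 0.937% for CPA at 25 °C. For temperature these shares were 17.3% and 21.4% in DMSO and 16.3% and 20.3% in CPA. With only 5 genes, a count of 0 says little beside these shares. The median log2 fold of the 5 genes was 0.14 for CPA at 37 °C, 0.05 for CPA at 25 °C, -0.19 for temperature in DMSO and -0.31 for temperature in CPA. In the cold without drug 3 of the 5 genes were below 0, with Gadd45gip1 lowest at -0.50, and Chchd1 and Dap3 were above it at 0.07 and 0.12.

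The counts of the lists that follow are to be read against all measured genes, of which 17.3% were higher and 21.4% lower at 1.5-fold for temperature in DMSO, and 6.59% and 6.61% for CPA at 37 °C. Of 13 mitochondrial translation factors, 2 were at least 1.5-fold higher and 1 lower for temperature in DMSO. Gfm1, the elongation factor that moves the ribosome along the mRNA, had 566, 670, 889 and 949 counts and a log2 fold of 0.86. Tufm, the elongation factor that brings aminoacyl-tRNA, had 1283, 911, 430 and 360 counts. It was 2.57-fold lower in DMSO (2.31 to 2.88) and 2.43-fold lower in CPA (2.15 to 2.75), below every measured member of the ribosome itself. For CPA at 37 °C, Tufm was 1.30-fold lower (1.19 to 1.42) and Taco1, a translational activator, 1.62-fold higher (1.35 to 1.94).

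Of 23 measured assembly factors, 7 were at least 1.5-fold higher and 2 lower in the cold without drug (30.4% and 8.70%). Mpv17l2, which takes part in ribosome assembly at the inner membrane, had 465, 473, 873 and 839 counts, a fold of 2.18 (1.94 to 2.44). Mettl15, a methyltransferase of the small ribosomal RNA, had 65, 73, 28 and 26 counts and was 2.00-fold lower, with a wide interval from 1.27 to 3.24. Rcc1l was at 0.93 and Ngrn at -0.68 on the log2 scale. For CPA at 37 °C, 0 of the 23 passed 1.5-fold.
Of 17 mitochondrial tRNA synthetases, 4 were higher and 0 lower at 1.5-fold in the cold without drug (23.5% higher, against 17.3% of all measured genes), led by Wars2 with 136, 132, 257 and 269 counts (2.19-fold, 1.77 to 2.72). For CPA at 37 °C, 3 were higher (17.6%, against 6.59%) and 0 lower (against 6.61%). The higher ones were Nars2 at 0.71, Mars2 at 0.63 and Cars2 at 0.60, and the lowest were Fars2 at -0.47 and Sars2 at -0.31.

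Genes that maintain and express mitochondrial DNA had the highest median of the mitochondrial lists in the cold. The 16 measured genes had a median log2 fold of 0.37 in DMSO and 0.32 in CPA, with 6 higher and 2 lower at 1.5-fold in DMSO. Slirp, which stabilizes mitochondrial mRNAs, had 2325, 3498, 4487 and 4827 counts and was 2.24-fold higher (2.13 to 2.35). Mterf2 had 98, 81, 218 and 180 counts (2.58, 2.02 to 3.31) and Polg2, the accessory subunit of the mitochondrial DNA polymerase, 189, 156, 327 and 339 (2.01, 1.67 to 2.41).
Polg, the catalytic subunit of the same polymerase, and Polrmt, the mitochondrial RNA polymerase, were lower instead, at -0.67 and -0.59. Transcripts of mitochondrial DNA itself, the templates of this ribosome, were not analysed here.

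Among 11 transcriptional regulators of mitochondrial genes, the median was -0.32 in the cold without drug, with 0 higher and 2 lower at 1.5-fold. Nrf1 had 283, 183, 141 and 159 counts and was 1.73-fold lower (1.41 to 2.13), and Yy1 was at -0.60. Gabpa, the ETS-family subunit of GABP, was at 0.34 and Myc at 0.53, while Gabpb1 of the same factor was at -0.32. For CPA at 37 °C the median was -0.04 with 5 of 11 above 0, and 0 of 11 were past 1.5-fold. Nrf1 was at -0.51 and Yy1 at -0.38, while Gabpb1 was at 0.40 and Ppargc1a, with 59 and 71 counts, at 0.38.

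For scale, 86 measured cytosolic ribosomal protein genes had a median log2 fold of 0.31 and a summed fold of 1.37 in the cold without drug, with 29 higher and 4 lower at 1.5-fold. The 81 measured respiratory chain genes had a median of 0.30 and a summed fold of 1.23, with 13 higher and 4 lower. The mitochondrial ribosomal proteins, at 0.13 and 1.17, were below both. For all genes the median was -0.01 and the summed fold 1.06. For CPA at 37 °C the medians were 0.00 for cytosolic ribosomal proteins, 0.15 for the respiratory chain and 0.09 for the mitochondrial ribosomal proteins. At 25 °C they were -0.04, 0.00 and 0.00. Whether the lists differ beyond the spread between cultures was not tested.

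**Figure D4:**
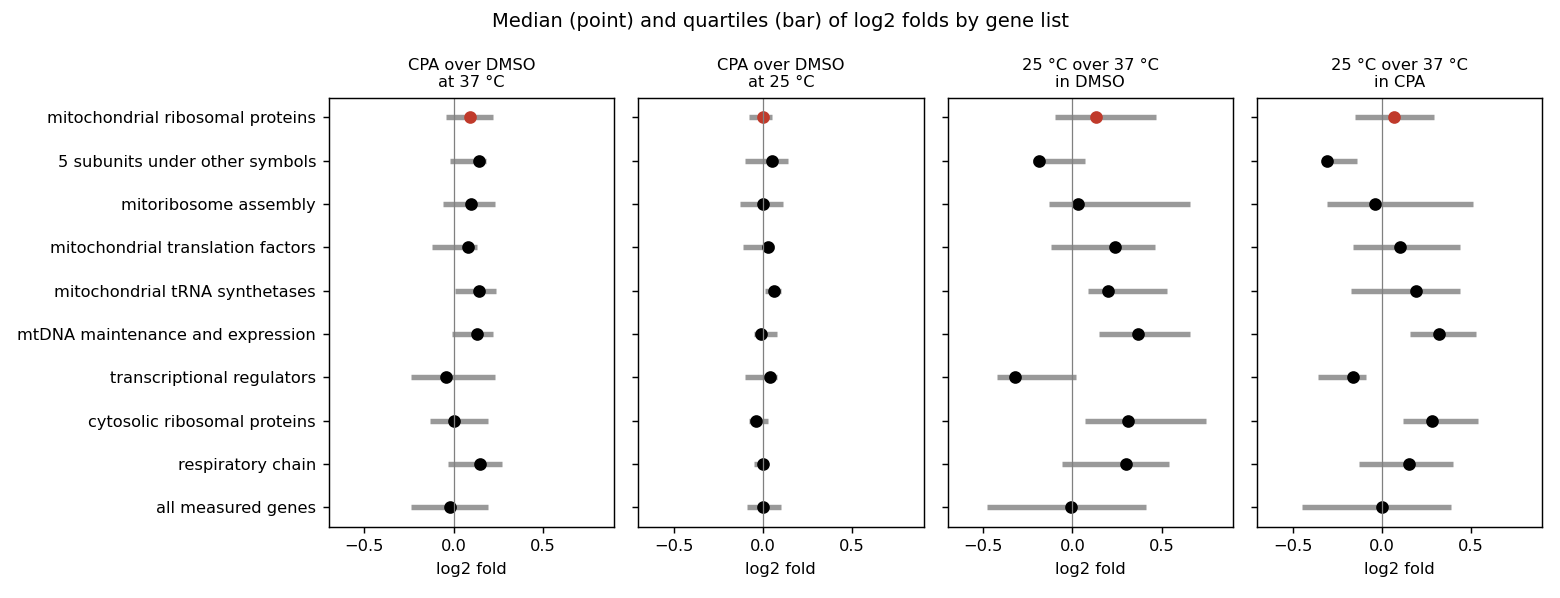
Median (point) and quartiles (bar) of the log2 folds of the mitochondrial ribosomal proteins (red) and of the other gene lists (black) in the 4 comparisons. All lists lie near 0 for CPA at 25 °C, while for temperature in DMSO the medians run from -0.32 for the transcriptional regulators to 0.37 for the genes of mitochondrial DNA.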

How the data were processed

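CAGE tags were aligned to mm9 by the authors, who used the MOIRAI pipeline with SAMtools to define start sites. BWA 0.5.9, mm9 and GRCh38 are named in the submitters' processing notes. Not given in the sources used here were the gene annotation and how tags were summed. The authors deposited raw counts per gene for 4 libraries of 15101186 to 16449264 counts.

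TMM factors over the 4 libraries came from edgeR 4.0.16 (R 4.3.3). Folds are ratios of counts over total times factor, with exact binomial (Clopper-Pearson) 95% intervals that cover counting error only. Genes with 50 counts or more in the higher of both libraries were measured, and folds of 1.5 and 2 were the calls. No p-value was computed, as each condition had 1 library. The members and lists were chosen with earlier results of these data known. Named were, in each comparison, the 5 highest and 5 lowest members, those past 2-fold, the 5 highest and 5 lowest levels, the 5 subunits outside the prefix and up to 2 highest and 2 lowest genes of each pathway list. Neighbouring genes and paralogues were chosen after their values were seen. Positions are from GENCODE vM1 (mm9), matched by gene identifier for 77 members, and promoter windows from RefSeq (GRCm38.p6). The calculations (Python 3.11.15, numpy 2.4.6, pandas 2.3.3, SciPy 1.17.1) were tested on simulated data. Alternatives were total counts, DESeq2 1.42.0 size factors, upper quartiles, Gapdh, count minimums of 200 and of 1, adding 10 counts to each value, and calls whose interval also lies past the fold.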

Additional observations from a re-analysis of the deposited data

Results flagged for a closer look

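In 6 of 78 genes, with TMM factors, the counting intervals of the drug's fold lay on opposite sides of 1 at 37 °C and at 25 °C, 7.69% of the members against 6.21% of the 12328 genes measured in both, so the share is near that of genes in general. The log2 fold at 25 °C minus that at 37 °C was -0.70 for Mrpl18, -0.69 for Mrps24, -0.48 for Mrpl36, -0.38 for Mrps12 and -0.35 for Mrpl41, all higher with CPA at 37 °C and lower with it at 25 °C, and 0.48 for Mrpl33, which had the reverse order. Mrpl33 shares its counts with the predicted gene Gm43809. In 2 of 78 genes the same held for temperature, with a difference (with CPA minus without) of -0.38 for Mrps12 and -0.36 for Mrpl12, which binds the mitochondrial RNA polymerase. That is 2.56% of the members against 3.73% of 13151 genes. For a given gene the drug difference and the temperature difference are the same quantity. The value of Mrps12 therefore appears under both and is not a further observation. Each sign comes from 1 library per condition, and these differences between conditions were not tested.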

How the results depend on the processing

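Each value rests on 1 library per condition, so leaving out a library was not possible. No paired analysis was possible because each condition has 1 library. Scaling to Gapdh rests on a single row of 117 to 215 counts. With it, the members' median was 0.73 for temperature in CPA, 0.55 for temperature in DMSO and 0.27 for CPA at 25 °C. For temperature in CPA, members past 1.5-fold were then 49 higher and 1 lower, and past 2-fold 15 higher and 0 lower, against 55.2% and 7.82%, and 28.0% and 4.76%, of all measured genes under the same scaling. For temperature in DMSO these were 35 and 1, and 14 and 0, against 39.0% and 11.4%, and 17.8% and 6.83%. Scaling to total counts gave 7 lower at 1.5-fold for temperature in CPA and 1 higher at 2-fold for temperature in DMSO. Where the interval also had to lie past the fold, temperature in CPA had 3 higher at 1.5-fold and 1 lower at 2-fold, temperature in DMSO had 9 higher and 3 lower at 1.5-fold and 1 higher and 0 lower at 2-fold, and CPA at 37 °C had 0 higher. Lower at 2-fold for temperature in DMSO was 1 member with DESeq2 size factors, with upper quartiles and with 10 counts added. A minimum of 200 counts left 0 higher for CPA at 37 °C, because Mrpl27 was no longer measured. Leaving out the 4 members whose counts equal another row's, an alternative added after seeing the data, gave 1 higher at 2-fold for temperature in DMSO, Mrpl2. The temperature folds of Mrps18c, Mrpl2, Mrpl34 and Mrps25 kept their sign under each of these alternatives that holds them. The cause of the other changes was not tested.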
